A study of Mus musculus with 6 samples.

Results

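Mast cells and basophils carry the high-affinity receptor for IgE, and the proteins that act directly beneath it relay its signal. The 10 genes described here encode these proximal signalling proteins. They are the kinases Lyn, Fyn, Syk and Btk, the adaptors Lat, Lat2 and Lcp2, the phospholipases Plcg1 and Plcg2, and Inpp5d, the gene of the lipid phosphatase SHIP1. They were chosen by gene symbol, as the rows of a count table of 37043 symbols that carry these 10 names. The rule uses symbols alone, but the 10 names were put together with earlier results of these data known. All 10 were found, and all 10 passed the filter on low counts that left 16675 genes for testing.

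Expression was measured by bulk RNA-seq in bone marrow-derived basophils (BMBAs), a culture model of basophils that is grown from bone marrow cells. The cells came from wild-type C57BL/6J mice, were cultured for 7 days at 0.3 ng/mL of a cytokine that the methods of the study name as IL-3, and were enriched with beads that bind CD49b. BMBAs then received either PBS as the control or 10 ng/mL IL-3, a growth factor that also activates basophils, for 6 h, with 3 libraries per group. The comparison belongs to the study's question whether IL-3 causes pre-basophils to leave the bone marrow. No antigen or IgE stimulus is named for these cultures. The values give the amount of each transcript and not the activity of its protein. Both groups had grown in IL-3 before, and the sources used here do not say whether any of it remained in the PBS group. According to the methods and legends of the study, the libraries of a group are 3 cultures. The sources used here do not say whether these came from separate mice, so the p-values measure the spread between cultures.

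In textbook accounts, antigen that links receptor-bound IgE lets Lyn phosphorylate the signalling motifs of the receptor, after which Syk binds to them and becomes active. Syk then phosphorylates the membrane adaptor LAT, on which the adaptor encoded by Lcp2 and phospholipase C gamma assemble, and Btk adds to the activation of the phospholipase. The phospholipase releases calcium and activates protein kinase C, which leads to degranulation and cytokine release. Fyn feeds a parallel branch through phosphoinositide 3-kinase, while SHIP1 removes a phosphate from the product of that kinase and so restrains the response.

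Library totals lay between 10537540 and 13999287 counts, and the lowest count of any of the 10 genes in any library was 145. Values are CPM, that is counts brought to a library of equal size, after TMM scaling (trimmed mean of M values), a scaling that centres most genes between libraries. A gene was called when its adjusted p in edgeR's quasi-likelihood test was below 0.05 over all genes tested. By this rule 38.2% of all tested genes were called. Those higher in IL-3 made up 18% of the tested genes and those lower 20.2%. Scaling by library totals alone moved the log2 fold changes of the tested genes by -0.16 (median), and then 25.2% of the calls were higher in place of 47.1%. The basophil markers were abundant in all libraries, with a summed level of 10199 to 11411 CPM in PBS and 15344 to 15559 CPM in IL-3 for 7 markers.

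Of the 10 genes, 3 were higher in IL-3 (Lcp2, Btk and Lat2), 1 was lower (Fyn) and 6 were not called (Lyn, Syk, Lat, Plcg1, Plcg2 and Inpp5d). The share called was therefore 40.0%, close to the 38.2% of all genes. By mean CPM the 10 genes ranked from 234 (Lat2) to 7739 (Plcg1) among the 16675 genes tested. The share over all genes therefore includes many at lower levels. Lcp2 moved most, by 3.61-fold, followed by Btk at 1.85-fold, whereas Lat2 rose 1.29-fold and Fyn fell by 22.5%. The median log2 fold change of the 10 genes was 0.027, beside -0.0033 over all genes tested, and the median size of the change, regardless of direction, was 0.13 beside 0.29. In 6 of the 10 genes all 3 IL-3 libraries lay on one side of all 3 PBS libraries, which was so in 48.2% of all genes tested. They lay above in 4 genes (Lcp2, Btk, Lat2 and Lat), beside 23.8% of all genes, and below in 2 (Fyn and Plcg1), beside 24.4%. Under scaling by library totals 3 were higher and 3 lower, because Lyn and Plcg2 then joined Fyn, beside 10.2% higher and 30.2% lower of all genes tested in that setting.

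**Figure D1:**
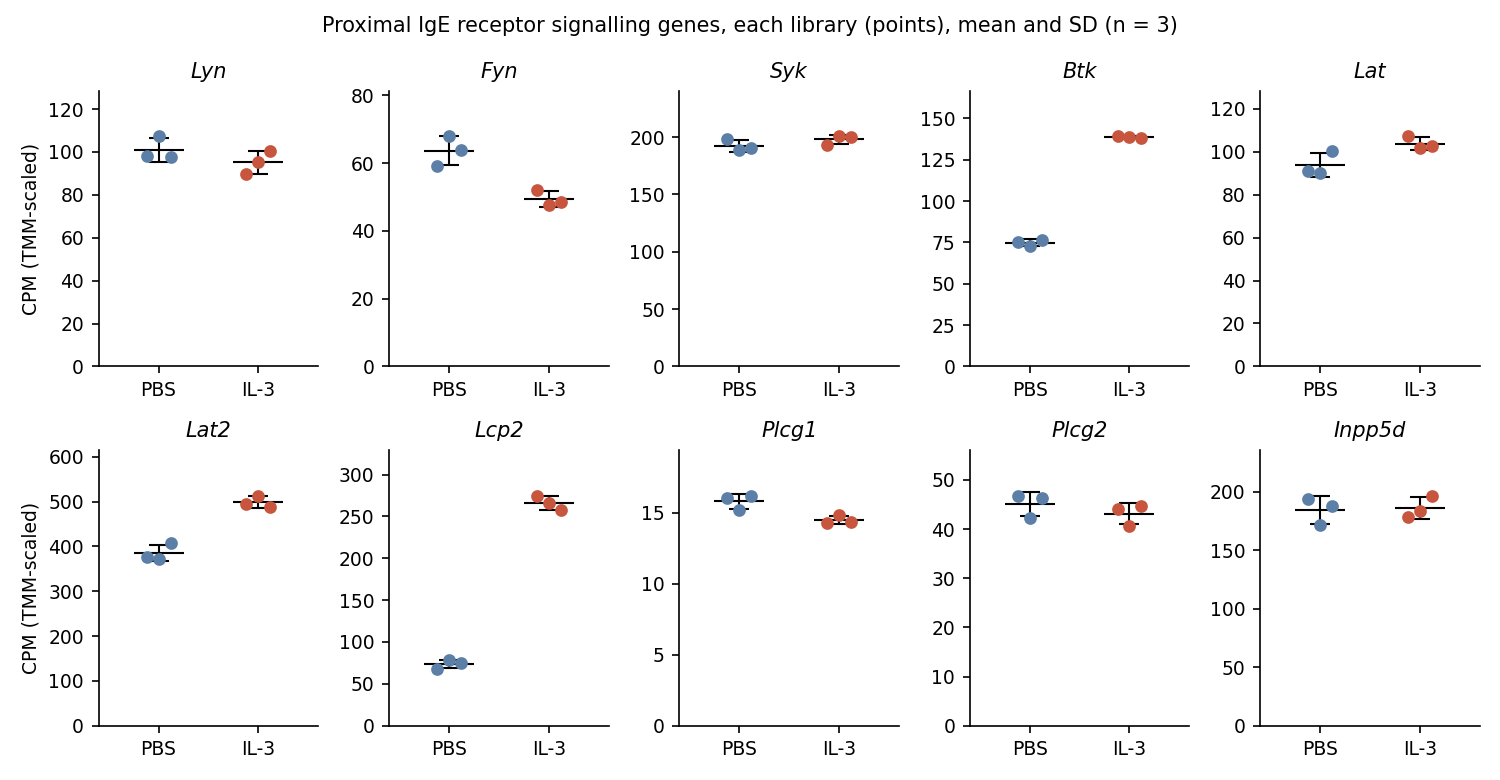
Expression in each library of the 10 genes, one panel each, in CPM after TMM scaling (y axis, which starts at 0 in each panel). Points are the 3 PBS and the 3 IL-3 libraries, and lines mark the mean with the SD. The IL-3 libraries of Lcp2 sit between 257 and 275 CPM, far above the PBS libraries at 68.3 to 78.2 CPM, while the points of Lyn, Syk, Plcg2 and Inpp5d overlap between groups.

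The sequences just before the transcription starts of the 3 genes that moved most in relative terms among those with an entry are shown first, because they are the stretches to which factors acting on these genes could bind. RefSeq (GRCm38.p6) gave 9 promoter windows for 8 of the 10 genes, with 2 starts for Syk, and Lyn and Lat2 had no entry. Each run begins 250 bases before the annotated start and is printed 5′ to 3′ in the direction of the gene, without bases that lie in an annotated UTR. Capitals mark the letters GATA or their reverse complement TATC, the core that GATA factors recognise, among them GATA2, a factor of basophil identity. The windows are chr11:34046678-34046919 on the plus strand for Lcp2, chrX:134583141-134583390 on the minus strand for Btk, and chr10:39369549-39369763 on the plus strand for Fyn. The windows of Btk and Fyn lie inside the longer gene models of GENCODE.
Lcp2: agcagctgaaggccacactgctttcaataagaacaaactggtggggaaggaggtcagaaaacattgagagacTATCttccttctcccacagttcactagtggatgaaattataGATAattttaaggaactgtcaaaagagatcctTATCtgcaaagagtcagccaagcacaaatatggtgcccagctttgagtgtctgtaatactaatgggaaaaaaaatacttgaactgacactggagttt
Btk: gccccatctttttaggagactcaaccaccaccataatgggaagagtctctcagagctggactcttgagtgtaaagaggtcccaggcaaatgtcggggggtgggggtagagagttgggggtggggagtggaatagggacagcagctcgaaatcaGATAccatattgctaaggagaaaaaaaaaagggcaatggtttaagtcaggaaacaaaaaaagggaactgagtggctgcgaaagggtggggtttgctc
Fyn: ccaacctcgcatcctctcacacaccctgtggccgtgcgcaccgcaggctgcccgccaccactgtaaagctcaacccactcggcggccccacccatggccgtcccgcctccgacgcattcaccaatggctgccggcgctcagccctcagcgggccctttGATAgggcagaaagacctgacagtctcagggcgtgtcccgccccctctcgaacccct

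The Lcp2 window held 3 of these GATA cores, and the windows of Btk and Fyn held 1 each. Over all members, 6 of 9 windows held at least 1, since Plcg2 also had 3, Inpp5d had 1, and Syk had 1 in one of its windows. Among all 32851 RefSeq promoters of 250 bases, 53.6% held the same letters. The STAT core TTCNNNGAA, searched because IL-3 signals through STAT5, occurred in 0 of the 9 windows and in 7.02% of all promoters. The ETS core GGAA was in 6 of 9 windows and in 93.4% of all promoters, and AGGAAGT, a longer form that contains GGAA, was found for Inpp5d alone and in 7.69% of all promoters. Both strands were searched in each case. Such matches describe letters in a window and are not binding sites, and the motifs were picked with the expression values known.

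Among the kinases, 1 rose, 1 fell and 2 were not called. Lyn (ENSMUSG00000042228, chromosome 4, 3678115 to 3813122, plus strand; GRCm38 coordinates of GENCODE M21, as for all genes below) encodes the Src-family kinase that is bound to the receptor at rest and that both starts and limits its signal. Its level was 98.0, 107.2 and 97.5 CPM in PBS replicates 1, 2 and 3 and 89.7, 95.3 and 100.6 CPM in IL-3 replicates 1, 2 and 3. The groups overlapped, with IL-3 replicate 3 above PBS replicates 1 and 3. The fitted log2 fold change was -0.08 (SE 0.0649, 95% interval -0.22 to 0.06, edgeR adjusted p 0.353). Of the 50-base stretches of Lyn transcripts, 13.4% also occur in other genes, chiefly Gm11787, which had 30 to 59 counts per library against 909 to 1297 for Lyn.

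Fyn (ENSMUSG00000019843, chromosome 10, 39368855 to 39565381, plus strand) encodes the Src-family kinase of the parallel branch. It had 59.2, 67.9 and 64.0 CPM in PBS and 52.0, 47.7 and 48.4 CPM in IL-3. All 3 IL-3 libraries lay below all 3 PBS libraries, with PBS replicate 1 and IL-3 replicate 1 nearest to each other. The mean was 63.7 ± 4.32 CPM in PBS against 49.4 ± 2.32 CPM in IL-3 (SD, n = 3 each), which the edgeR fit put at -0.37 on the log2 scale (SE 0.0748, adjusted p 0.00101). That is a fall to 0.775 of the PBS level, with a 95% interval of 0.694 to 0.865. Fyn was no longer called when the test asked for a change beyond 1.5-fold.

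Syk (ENSMUSG00000021457, chromosome 13, 52583173 to 52648792, plus strand), the kinase that binds the phosphorylated receptor, had the highest CPM of the 4 kinases, a value not corrected for transcript length. Per kb of the longest transcript, Btk stood above Syk in IL-3, at 54.6 against 36.9 CPM per kb. Its libraries had 198.0, 188.3 and 190.7 CPM in PBS and 193.1, 200.5 and 200.1 CPM in IL-3. The groups overlapped, as PBS replicate 1 exceeded IL-3 replicate 1. The log2 fold change of 0.04 (95% interval -0.07 to 0.15, edgeR adjusted p 0.584) turned to -0.12 under scaling by library totals, a setting with a median shift of -0.16 over all genes.

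Btk (ENSMUSG00000031264, chromosome X, 134542336 to 134583570, minus strand) encodes a Tec-family kinase that phosphorylates phospholipase C gamma. It was expressed at 75.3, 72.6 and 76.5 CPM in PBS and at 139.1, 138.7 and 137.9 CPM in IL-3. The replicates lay within a few CPM of each other and the groups were far apart. Btk rose from 74.8 ± 1.99 CPM to 139 ± 0.607 CPM (SD, n = 3 each), by 0.89 on the log2 scale (SE 0.0567, edgeR adjusted p 3.74e-09), which is 1.85-fold with a 95% interval of 1.70 to 2.01. Of all genes tested, 4.75% had a higher log2 fold change. Btk is also a gene of B cells. For PBS libraries the sum of 7 B cell markers ran from 8.84 to 12.4 CPM, and for IL-3 libraries from 7.00 to 9.23 CPM (1 lower of 4 tested). The part of B cells in the rise of Btk was not tested, nor was that of the more abundant marker lists described below.

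Of the 3 adaptors, Lcp2 and Lat2 rose and Lat was not called. Lcp2 (ENSMUSG00000002699, chromosome 11, 34046920 to 34092295, plus strand) encodes the cytosolic adaptor that brings phospholipase C gamma, Vav and Btk to LAT. Its libraries had 68.3, 78.2 and 74.6 CPM in PBS and 275, 267 and 257 CPM in IL-3. The lowest IL-3 library lay far above the highest PBS library. The mean rose from 73.7 ± 5.01 to 266 ± 8.83 CPM (SD, n = 3 each), and the edgeR fit gave 1.85 on the log2 scale (SE 0.0630, adjusted p 1.67e-12). The fold change was 3.61 with a 95% interval of 3.29 to 3.96, and 1.28% of all tested genes had a higher log2 fold change.

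Lat2 (ENSMUSG00000040751, chromosome 5, 134600022 to 134615025, minus strand) encodes NTAL, a membrane adaptor related to LAT that binds Grb2. It was measured at 376.5, 372.7 and 406.8 CPM in PBS and at 494.0, 512.9 and 488.6 CPM in IL-3. The groups did not overlap, and PBS replicate 3 was the highest of its group. Means of 385 ± 18.7 CPM in PBS against 499 ± 12.8 CPM in IL-3 (SD, n = 3 each) corresponded to a rise of 0.37 on the log2 scale (SE 0.0511, edgeR adjusted p 2.65e-05). Like Fyn, it was no longer called against a fold of 1.5. Of 2621 exonic bases of Lat2, 952 lie opposite exons of Rfc2 on the other strand, and the sources used here do not say how the counting treated strand. Rfc2 itself went the other way, with 155 ± 9.76 CPM in PBS against 105 ± 2.04 CPM in IL-3 (SD, n = 3 each, log2 fold change -0.56, edgeR adjusted p 2.24e-06).

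Lat (ENSMUSG00000030742, chromosome 7, 126363824 to 126369570, minus strand), the gene of the central membrane scaffold, was the closest to the threshold among the genes not called. It had 91.2, 90.3 and 100.4 CPM in PBS and 107.1, 101.7 and 102.5 CPM in IL-3. The groups did not overlap, but PBS replicate 3 came close to the lowest IL-3 library. The difference of 0.14 on the log2 scale (SE 0.0621, 95% interval 0.01 to 0.27) had an edgeR adjusted p of 0.0840. Without PBS replicate 3 it was 0.19 with an edgeR adjusted p of 0.0329, and under scaling by library totals it was -0.020, so its direction was not firm.

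Neither phospholipase C gamma gene was called. Plcg1 (ENSMUSG00000016933, chromosome 2, 160731300 to 160775760, plus strand) had 16.0, 15.2 and 16.2 CPM in PBS and 14.3, 14.8 and 14.3 CPM in IL-3. The IL-3 libraries lay just below the PBS libraries, with 145 to 196 reads behind each value. The fold change was -0.12 on the log2 scale (SE 0.115, 95% interval -0.37 to 0.12, edgeR adjusted p 0.439). Plcg2 (ENSMUSG00000034330, chromosome 8, 117498291 to 117635142, plus strand), the form that prevails in many blood cells, had 46.8, 42.3 and 46.3 CPM in PBS and 44.0, 40.6 and 44.8 CPM in IL-3. These groups overlapped, and the log2 fold change of -0.07 (95% interval -0.23 to 0.10) had an edgeR adjusted p of 0.556. With library totals Plcg2 was at -0.23 and was called with an edgeR adjusted p of 0.0347, as was Lyn at -0.25 with 0.00604, with the same median shift of all genes.

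Inpp5d (ENSMUSG00000026288, chromosome 1, 87620312 to 87720507, plus strand), the brake of the set, had 194.4, 171.6 and 187.7 CPM in PBS and 178.2, 183.7 and 196.8 CPM in IL-3. The groups overlapped, with PBS replicate 2 the lowest and IL-3 replicate 3 the highest of all libraries. The log2 fold change was 0.01 (95% interval -0.12 to 0.15, edgeR adjusted p 0.893). In percent the difference was 0.94, with interval bounds of -7.87% and 10.6%.

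**Figure D2:**
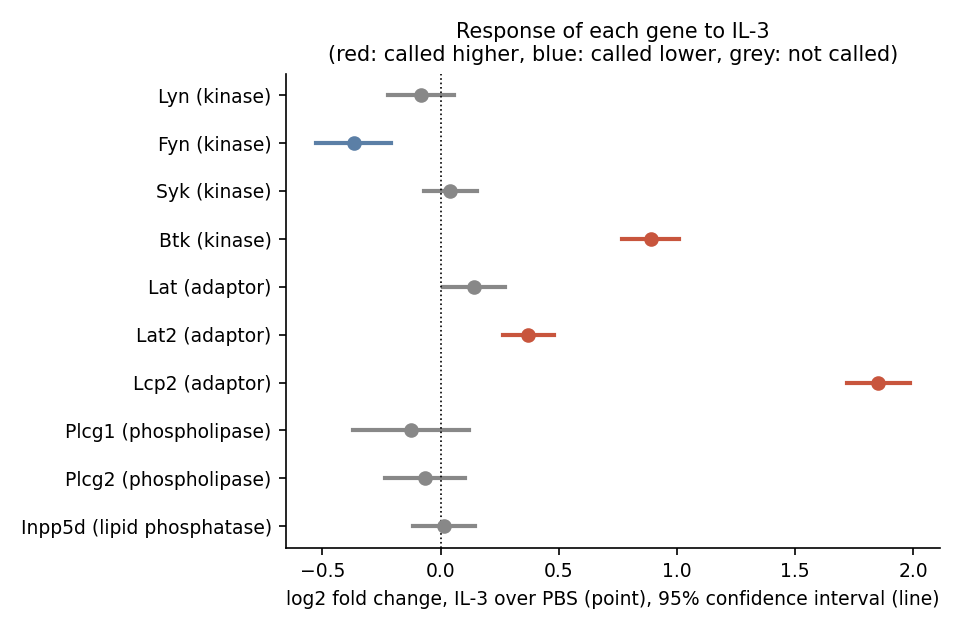
Log2 fold change of IL-3 over PBS for the 10 genes (x axis), as points with 95% confidence intervals from the edgeR fit, with the called genes coloured by direction. Lcp2 at 1.85 and Btk at 0.89 stand apart from Lat2 at 0.37, Fyn at -0.37 and the 6 genes whose values lie between -0.12 and 0.14.

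Because longer transcripts yield more reads, levels of different genes were compared as CPM per kb of the longest annotated transcript. On this scale Lat2 was the highest of the 10 in both groups, at 224 ± 10.9 in PBS and 290 ± 7.44 in IL-3 (SD, n = 3 each). In PBS it was followed by Lat at 45.8 ± 2.73, Inpp5d at 37.4 ± 2.37, Syk at 35.9 ± 0.937, Btk at 29.4 ± 0.783, Lyn at 29.1 ± 1.58, Lcp2 at 20.2 ± 1.38, Fyn at 17.9 ± 1.21, Plcg2 at 10.5 ± 0.569 and Plcg1 at 3.09 ± 0.109 CPM per kb. The neighbours Inpp5d and Syk, Btk and Lyn, and Lcp2 and Fyn overlapped between libraries and have no firm order. In IL-3 the level of Lcp2 was 73.0 ± 2.42 CPM per kb, which moved it from rank 7 to rank 2, and that of Btk was 54.6 ± 0.239, which moved it from rank 5 to rank 3. Lat at 50.6 ± 1.42, Inpp5d at 37.7 ± 1.93, Syk at 36.9 ± 0.777, Lyn at 27.5 ± 1.57, Fyn at 13.9 ± 0.651, Plcg2 at 10.0 ± 0.511 and Plcg1 at 2.84 ± 0.0556 CPM per kb came after them, and only Inpp5d and Syk overlapped. With the median transcript length in place of the longest, Lcp2 moved from rank 4 to rank 2 and Btk from rank 7 to rank 4.

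**Figure D3:**
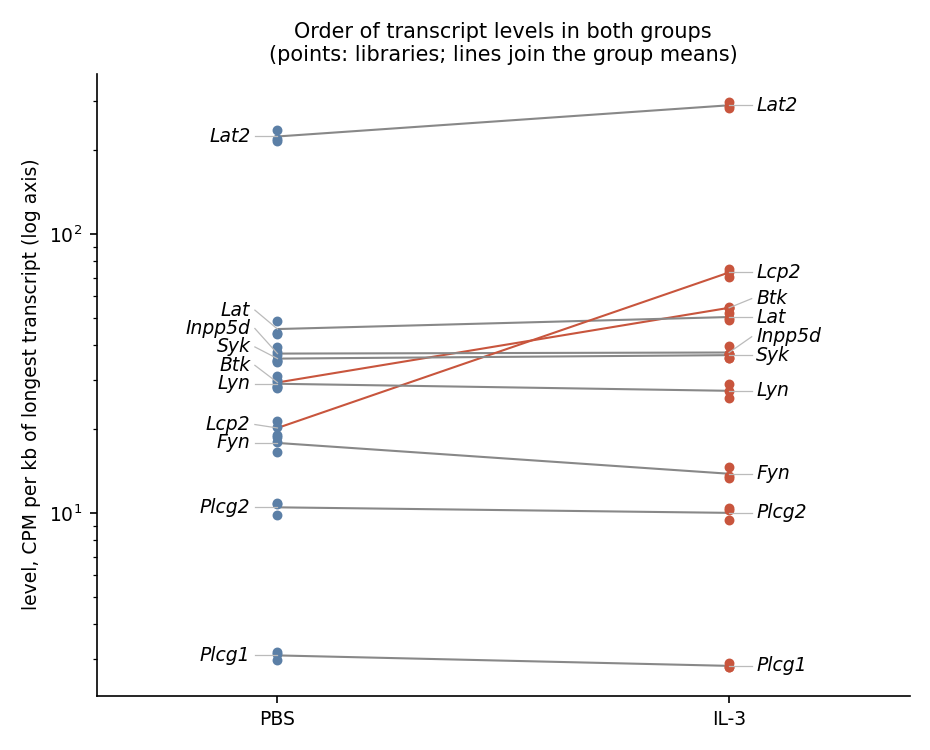
Level of each of the 10 genes in PBS and IL-3 as CPM per kb of the longest transcript (y axis, log scale). Points are the 3 libraries of each group, lines join the group means, and red lines mark Lcp2 and Btk. The line of Lcp2 crosses from rank 7 to rank 2 and that of Btk from rank 5 to rank 3, while Lat2 stays on top and Plcg1 at the bottom in both groups.

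Members of the same family were also compared within each library, since a ratio of reads needs no scaling between libraries. For Fyn to Lyn the ratio was 0.605, 0.633 and 0.656 in PBS and 0.580, 0.501 and 0.481 in IL-3. For Lat2 to Lat it was 4.13, 4.13 and 4.05 in PBS and 4.61, 5.04 and 4.76 in IL-3. Both ratios separated the groups, Fyn:Lyn on the lower and Lat2:Lat on the higher side in IL-3. On the log2 scale the mean ratios differed by -0.28 and 0.23, each with a p of 0.1 in an exact two-sided permutation test (adjusted over 3 pairs 0.15), which is the smallest p that 3 against 3 libraries can give. Plcg2 to Plcg1 was 2.91, 2.79 and 2.85 in PBS and 3.07, 2.74 and 3.11 in IL-3, and these overlapped (difference 0.058, exact permutation p 0.4, adjusted 0.4). That difference was larger than the SD of the log2 ratio in PBS (0.032) and smaller than that in IL-3 (0.102).

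**Figure D4:**
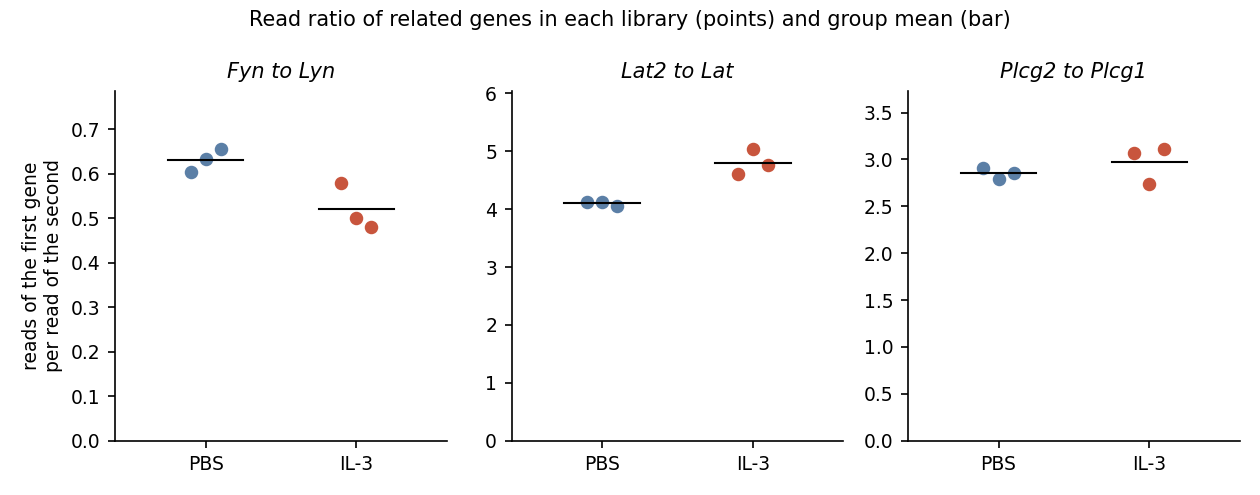
Ratio of reads within each library for Fyn to Lyn, Lat2 to Lat and Plcg2 to Plcg1 (y axis, linear scale from 0, reads of the first gene per read of the second), with each point a library and bars at the group means. The IL-3 points lie below the PBS points for Fyn to Lyn, above them for Lat2 to Lat, and among them for Plcg2 to Plcg1.

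The receptor above these proteins also changed in its parts. Fcer1a, the IgE-binding alpha chain, fell from 289 ± 16.0 to 204 ± 3.32 CPM (log2 fold change -0.50, edgeR adjusted p 2.38e-06), whereas Ms4a2, the signal-amplifying beta chain, rose from 293 ± 21.0 to 517 ± 51.4 CPM (0.82, edgeR adjusted p 1.43e-07) and Fcer1g, the signalling gamma chain, rose from 1131 ± 7.49 to 1648 ± 20.7 CPM (0.54, edgeR adjusted p 2.19e-08; SD, n = 3 each). Their order per kb was Fcer1g, Fcer1a and Ms4a2 in PBS, at 1657, 290 and 122 CPM per kb, and Fcer1g, Ms4a2 and Fcer1a in IL-3, at 2413, 216 and 204 CPM per kb, where the libraries of Ms4a2 and Fcer1a overlapped. With the median transcript length Fcer1a and Ms4a2 stood at 317 and 290 CPM per kb in PBS and at 224 and 512 CPM per kb in IL-3, so the distance between them depends on the length used.

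Around the 10 genes, a list of 66 further genes of the pathway was drawn from general knowledge of the pathway, also with earlier results of these data known, and 63 of them passed the filter (Lck, Blk and Pik3r3 did not). Of these 27 were higher in IL-3, 21 were lower and 15 were not called. The share called was 76.2%, beside 38.2% of all genes tested, with a median log2 fold change of 0.03, so the list moved in both directions. Against a fold of 1.5, 15 were higher and 3 lower, beside 4.25% higher and 5.3% lower of all genes tested. No test was made of the list as a whole.

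Among 9 tested other kinases of the Src, Csk and Tec families with the Csk anchor Pag1, 5 were higher and 1 was lower. Tec, a relative of Btk, went from 79.0 ± 3.56 to 294 ± 18.8 CPM (log2 fold change 1.90, edgeR adjusted p 1.4e-12), and Pag1, which recruits the Src inhibitor Csk to the membrane, rose by 1.04 (edgeR adjusted p 2.3e-09). Txk, named outside the rule after its values were seen, is another relative of Btk and rose by 2.22.

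Of 16 adaptors and exchange factors, 8 were higher and 6 lower. Dok2, an adaptor that dampens Ras signalling, went from 51.4 ± 2.22 to 196 ± 20.6 CPM (log2 fold change 1.93, edgeR adjusted p 1.22e-11), and Gab2, which couples the Fyn branch to phosphoinositide 3-kinase, from 118 ± 7.75 to 261 ± 21.6 CPM (1.14, edgeR adjusted p 1.87e-09). Skap2 fell by 0.50 and Vav3, a guanine nucleotide exchange factor, fell by 0.83, with edgeR adjusted p of 0.000104 and 0.000126. Of 9 inhibitory phosphatases and ubiquitin ligases, 3 were higher and 2 lower. Inpp4b, which acts on the lipid that SHIP1 produces, rose from 67.4 ± 4.37 to 234 ± 16.8 CPM (log2 fold change 1.80, edgeR adjusted p 7.39e-12). The SHIP1 relative Inppl1 fell by 0.67 and Ptpn22, a tyrosine phosphatase that acts on Src-family kinases, fell by 1.27 (edgeR adjusted p 0.000373 and 7.16e-05).

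Phosphoinositide 3-kinase subunits split by gene. Of 8 tested, 3 were higher and 4 lower. Pik3cd, the catalytic delta subunit, had 65.4, 64.0 and 62.5 CPM in PBS and 388, 397 and 359 CPM in IL-3, a 5.96-fold rise (log2 fold change 2.57, edgeR adjusted p 1.63e-14) and the largest of the 66 genes. Pik3cg rose by 0.61, while the regulatory subunits Pik3r5 and Pik3r2 fell by 1.12 and 0.73 (edgeR adjusted p 1.54e-05, 1.11e-06 and 0.00114). The remaining called subunits are named outside the rule, after their values were seen. Catalytic Pik3cb fell by 0.80, regulatory Pik3r1 rose by 0.30 and regulatory Pik3r6 fell by 0.76 (edgeR adjusted p 0.00129, 0.00301 and 0.0141). The split therefore did not follow catalytic against regulatory subunits. Among 18 effectors of calcium and diacylglycerol, 6 were higher and 7 lower. Rasgrp4, a diacylglycerol-binding Ras activator of mast cells, went from 6.18 ± 0.232 to 36.1 ± 1.70 CPM (log2 fold change 2.55, edgeR adjusted p 5.4e-11), and Prkcq, a protein kinase C, rose by 1.21 (edgeR adjusted p 3.91e-09). Dgkz and Itpkb, which consume diacylglycerol and inositol trisphosphate, fell by 0.70 and 0.73 (edgeR adjusted p 6.67e-07 and 5.99e-06).

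**Figure D5:**
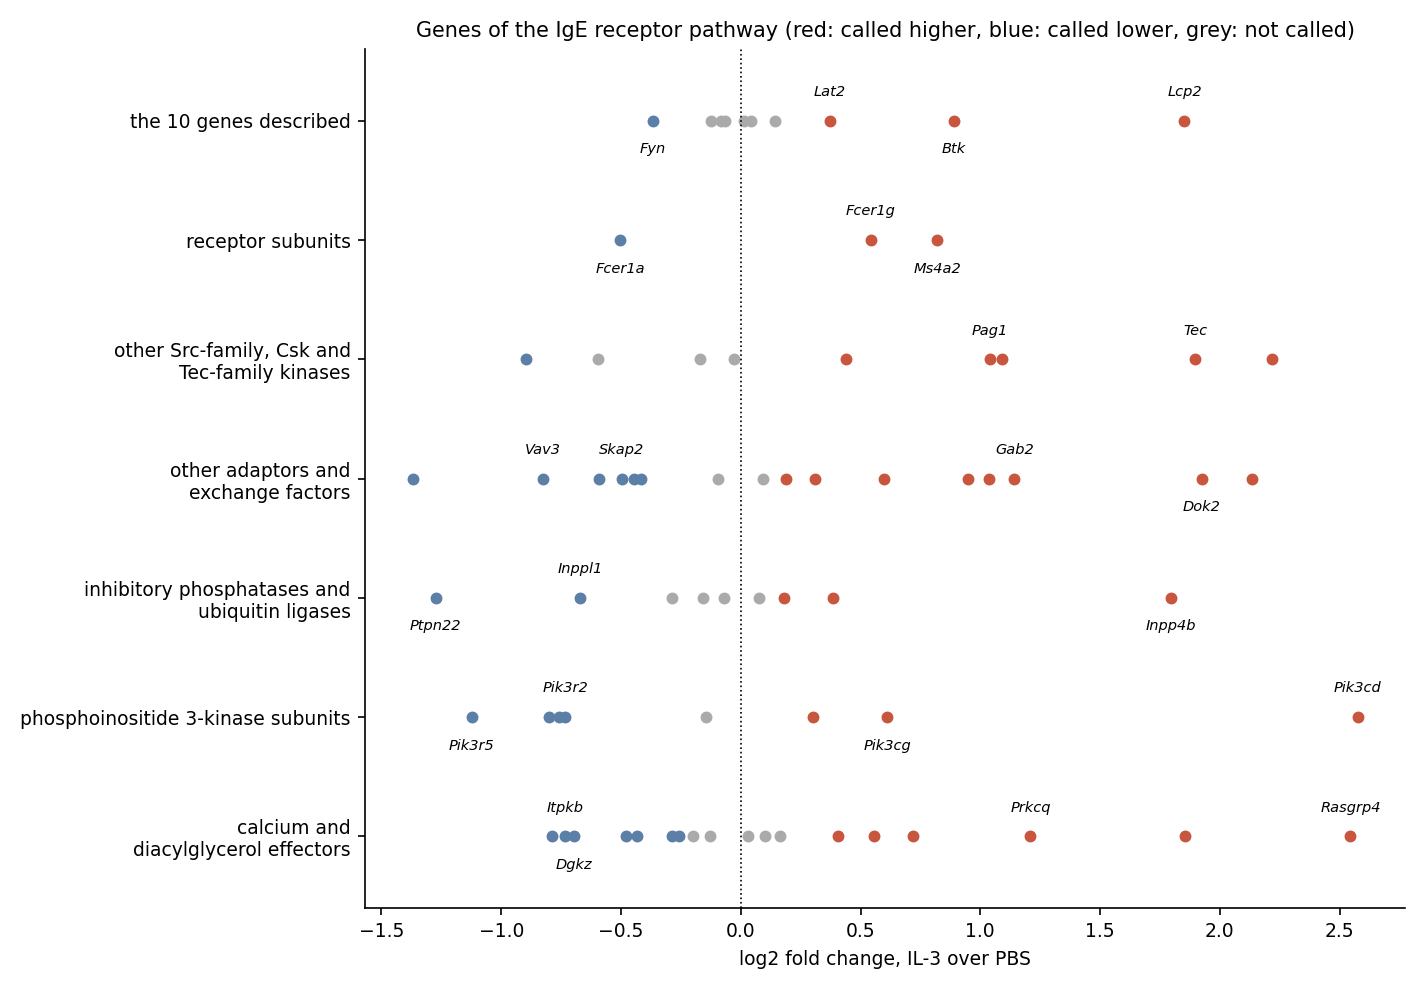
Log2 fold change of IL-3 over PBS (x axis) for the 10 genes (top row) and for the 63 tested genes of the wider pathway in 6 groups, with each point a gene, red for called higher, blue for called lower and grey for not called by edgeR; most genes named in the text are labelled. Each row holds both red and blue points, and Pik3cd at 2.57 lies farthest to the right.

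BMBAs are a bead-enriched culture, so the libraries can hold RNA of other cells, and fewer cells of a type and less RNA per cell cannot be told apart in bulk samples. The summed level of 10 monocyte and macrophage markers was 11885 to 12813 CPM in PBS and 6184 to 6814 CPM in IL-3, and 8 of them were called lower and 1 higher. That list, led by Lyz2 at 10456 ± 432 and 5348 ± 316 CPM, moved with the lower Fyn and opposite to the higher Lcp2, Btk and Lat2. Its mean sum of 12457 CPM in PBS was above the 10722 CPM of the basophil list, although such sums do not give shares of cells. The part of the monocyte and macrophage list was not tested for any of the 10 genes, including the 6 not called. Mast cell markers summed to 397 to 454 CPM in PBS and 692 to 783 CPM in IL-3 (3 higher and 2 lower of 7 tested), and among the 7 basophil markers, whose sums are given above, 6 rose and 0 fell. These lists moved with the higher Lcp2, Btk and Lat2, and their part was not tested either.

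The lists of other blood cells differed in level. T cells also express Lcp2, Lat and Fyn, and 7 T cell markers summed to 11.8 to 20.0 CPM in PBS and 9.48 to 16.5 CPM in IL-3, with 0 of 5 tested called. Megakaryocyte and platelet markers summed to 1095 to 1777 CPM in PBS and 603 to 1137 CPM in IL-3 (3 lower of 6). Neutrophil markers summed to 122 to 158 and 194 to 257 CPM (3 higher and 1 lower of 7), eosinophil markers to 157 to 175 and 98.4 to 138 CPM (1 higher and 3 lower of 6), dendritic cell markers to 86.0 to 90.6 and 70.7 to 79.9 CPM (1 lower of 6) and erythroid markers to 101 to 220 and 54.7 to 101 CPM (2 lower of 4), in PBS and IL-3. The sum of NK cell markers went from 154 to 173 CPM in PBS to 1349 to 1633 CPM in IL-3, nearly all of it Gzmb, and both tested markers of 7, Gzmb and Nkg7, were called higher, while Gzma had no count in any library. Ncr1, Klrb1c, Klrd1 and Eomes of the same list did not pass the filter, with group means of 0.14 to 0.64 CPM. How far any of these cells contributed to the 10 genes was not tested.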

How the data were processed

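Poly(A) RNA of 6 BMBA libraries (3 PBS, 3 IL-3) was captured on beads, amplified by the TAS-Seq workflow and fragmented. The authors trimmed reads with Cutadapt 3.4, mapped them with Bowtie2 to reference RNA and deposited raw read counts per gene symbol, which is the unit of all values used. The methods name the build GRCm38 and the submitters' processing notes name GRCm39. The labels name a column kit for the RNA and the methods direct lysis. Strand, molecular identifiers and reads of several origins are not described for this experiment, so copies made by PCR may count as separate reads.

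The deposited counts were filtered with filterByExpr, scaled by TMM and fitted by group with edgeR 4.0.16 (R 4.3.3). The methods of the study name the package TCC for this step. Tests are two-sided with Benjamini-Hochberg adjustment over 16675 genes. The script was tested on simulated data with far fewer changed genes, in equal numbers up and down. That setting does not test the scaling between libraries. A gene at 0 counts may have had up to 3, or 0.214 to 0.285 CPM by library before TMM scaling, for counting error only. Library pairs of one group differed by a chi-square of 2.75 to 4.69 per degree of freedom, so no library looked like a copy of another. Coordinates, lengths and shared 50-base stretches came from GENCODE M21, promoters from RefSeq.

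The members and lists were chosen with earlier results of these data known. Named are the 10 genes, the 3 receptor subunits and, per group of the wider list, up to 2 called genes per direction with the smallest adjusted p and at least 5 CPM in the higher group. A few genes selected in this way are left out of the text. Alternatives were DESeq2 1.42.0 size factors and its Wald test, library totals, iterated TMM (DEGES), no filter or 1 CPM in 3 libraries, the edgeR exact test, limma-voom (limma 3.58.1), a replicate block, leaving out each library, adjusted p of 0.1 and 0.01, a fold of 1.5, and, where used, the median transcript length and a pseudocount of 5 in place of 0.5.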

Additional observations from a re-analysis of the deposited data

How the results depend on the processing

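Lcp2 (1.69 to 1.90) and Btk (0.73 to 0.90) were called higher under all 18 alternatives for the fold change. Lat2 ranged from 0.21 to 0.41 and Fyn from -0.53 to -0.32, and both were called except against a fold of 1.5, where Lat2 at 0.37 and Fyn at -0.37 had an edgeR adjusted p of 1. That test, by its construction, left 709 higher and 883 lower genes, 0 lower among the 10 genes, and 15 higher and 3 lower in the wider pathway. Library totals without TMM gave 1698 higher and 5030 lower genes and 3 lower among the 10, with Lyn at -0.25 and Plcg2 at -0.23 now called and Syk at -0.12, Lat at -0.020 and Inpp5d at -0.15 reversed, while all genes shifted by a median of -0.16. Inpp5d was also reversed with iterated TMM (-0.0099) and ranged from -0.038 to 0.051 with 1 library left out, below 0 without PBS replicate 2 or IL-3 replicate 3. Lat ranged from 0.11 to 0.19 with 1 library left out, called only without PBS replicate 3, and was also called at 0.14 with the threshold at 0.1. The cause of these changes was not tested. With 1 library left out, the genes called higher numbered 2482 to 2787 and those called lower 2883 to 3108.

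Same-numbered libraries deviated from their group means with correlations of -0.0087, -0.016 and -0.022, which is no hint that they were paired. With the replicate block 2842 genes were higher and 3247 lower, and none of the 10 genes changed its call, with Lcp2 at 1.85, Btk at 0.89, Lat2 at 0.37 and Fyn at -0.37.

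The 3 ratios between family members kept their sign in all 24 recalculations. The 22 pathway genes that the rule selects all kept their sign under the 18 alternatives, and 11 of them lost their call against a fold of 1.5 and nowhere else. The median transcript length moved 18 of 20 levels per kb, since it changes the divisor, and library totals moved 4 of 22 marker sums beyond their SD. Plcg1, with 145 to 196 reads per library, had the widest interval of the 10 genes.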

Other observations

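Several other genes of the pathway, chosen after their values were seen, changed in the same libraries. Clnk, an adaptor related to Lcp2, was low in PBS at 2.34 ± 0.566 CPM and reached 10.3 ± 1.17 CPM in IL-3 (log2 fold change 2.13, edgeR adjusted p 5.29e-07). Nck2 and Sos1, which link phosphorylated adaptors to the cytoskeleton and to Ras, rose by 0.95 and 1.03, whereas Grb2, the adaptor that carries Sos to the membrane, was at 0.09 and was not called. Csk, the kinase that holds Src-family kinases inactive, rose by 0.44. Orai1, the pore of the store-operated calcium channel, rose by 0.72, while its gating partner Stim1 fell by 0.43 and Orai2 fell by 0.26.

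Also chosen after their values were seen, Ptpn6 and Grap2 are close partners of the 10 genes. Ptpn6, the gene of the phosphatase SHP-1, was at -0.16 with an edgeR adjusted p of 0.0975 and was not called, although its groups did not overlap. Grap2, the partner that joins the product of Lcp2 to LAT, fell by 0.59 (edgeR adjusted p 0.00659), with libraries that overlapped between groups.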
